A study of Mus musculus with 16 samples.

Results

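The renin-angiotensin system genes are those of its classical axis, Agt, Ren1, Ace, Agtr1a, Agtr1b and Agtr2. They were followed through every probe set (a set of short oligonucleotides that reports 1 transcript) to which the platform annotation gives 1 of these symbols and no other. That rule found 6 of the 45037 probe sets tested, and they stand for 5 of the 6 genes, out of 18193 genes measured: Agt, Agtr1a, Agtr1b and Agtr2 with 1 probe set each and Ace with 2. No probe set was annotated to Ren1 alone, so Ren1 was not analysed here.

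Mice aged 30 days gave the tissue, and they were either Eln+/+ or Eln+/-, heterozygous for the elastin gene Eln. From each genotype RNA was taken from the ascending aorta and from aortic valve tissue, which was dissected with its annulus and root as well as its cusps. Tissue and genotype make 4 groups of 4 arrays, and an array holds RNA of a single specimen with no pooling. No treatment was given, and the labels give neither the sex of the mice, their strain, nor whether an aorta and a valve of the same number came from 1 mouse.

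Values are log2 ratios of each array to the median of the same probe set over the 16 arrays, so 0 is that median and 1 unit is a doubling. A ratio holds no signal level, and no gene's level can be set against another gene's or called absent. For Agtr1b and Agtr2 the median of the ratios themselves was 0.579 and 0.886 and not 1, which held for 11.7% of the tested probe sets. Such rows may be low in signal, which the ratios alone cannot show. In whole tissue, fewer cells of a type and less RNA per cell cannot be told apart.

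Angiotensinogen, the product of Agt, is cut by renin to angiotensin I, from which angiotensin-converting enzyme (Ace) makes angiotensin II. Angiotensin II acts on the AT1 receptor, which rodents encode in a pair of genes, Agtr1a and Agtr1b, and on the AT2 receptor, the product of Agtr2, which opposes many AT1 responses. In the artery wall the AT1 receptor drives contraction and growth of smooth muscle and matrix production, and Eln+/- mice are known for stiff large arteries and raised blood pressure.

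The table as a whole sets the scale for these genes. Both Eln probe sets were lower on average in Eln+/- tissue, by 0.42 and 0.22 log2 units in the aorta and by 1.27 and 0.61 in the valve, with adjusted p of 0.395 to 0.920 (limma). All 10 heart muscle markers rose from aorta to valve over both genotypes, with a median difference of 4.55, and 6 of 8 smooth muscle markers fell. The mean of the heart muscle markers ran from -4.04 to -1.21 in the aorta, from 0.58 to 1.73 in the Eln+/+ valve and from 1.32 to 2.43 in the Eln+/- valve. Xist, the RNA of the inactive X chromosome, was high on all 8 Eln+/- arrays and on 1 of 4 Eln+/+ arrays in each tissue. Y-linked Eif2s3y averaged 3.47 and 3.61 in the Eln+/+ aorta and valve and -0.066 and -0.12 in the Eln+/- tissues. Sex so read goes with genotype on all but those 2 Eln+/+ arrays, and beyond what these arrays allow, genotype and sex cannot be told apart in any genotype comparison below. Among the Eln+/- aorta arrays, 2, replicates 2 and 4, carried high thymocyte markers (means of 2.78 and 1.66, with 0.41 the highest elsewhere). For comparison, 0% of the whole table passed an adjusted p of 0.05 between the genotypes in the aorta or in the valve, although 5.51% and 8.6% of them had an unadjusted p below 0.05.

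The promoters of Agt and Ace are shown because these genes carry the clearest genotype and tissue differences below. They are the RefSeq sequences of build GRCm38.p6 from 250 bases before to 50 bases after the start site, 5′ to 3′ on the coding strand, with matches to TATAA and to GGGCGG in capitals, each searched on both strands. The Agt promoter lies at chr8:124569657-124569956 on the minus strand. Ace has 2 entries, the first start of the gene at chr11:105967698-105967997 and an internal start at chr11:105974939-105975238, both on the plus strand.

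Agt: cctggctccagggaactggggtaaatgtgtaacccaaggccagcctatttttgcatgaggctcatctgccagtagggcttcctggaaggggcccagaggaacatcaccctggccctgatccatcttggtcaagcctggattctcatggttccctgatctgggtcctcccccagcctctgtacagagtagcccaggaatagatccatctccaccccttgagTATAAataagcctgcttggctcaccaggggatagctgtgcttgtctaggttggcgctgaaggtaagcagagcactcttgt
Ace, first start: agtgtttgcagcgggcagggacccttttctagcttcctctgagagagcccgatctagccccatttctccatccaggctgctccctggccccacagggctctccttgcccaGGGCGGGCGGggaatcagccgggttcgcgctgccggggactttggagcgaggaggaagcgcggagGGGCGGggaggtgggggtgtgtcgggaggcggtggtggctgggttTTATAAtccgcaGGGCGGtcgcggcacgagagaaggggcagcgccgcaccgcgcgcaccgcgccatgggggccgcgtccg
Ace, internal start: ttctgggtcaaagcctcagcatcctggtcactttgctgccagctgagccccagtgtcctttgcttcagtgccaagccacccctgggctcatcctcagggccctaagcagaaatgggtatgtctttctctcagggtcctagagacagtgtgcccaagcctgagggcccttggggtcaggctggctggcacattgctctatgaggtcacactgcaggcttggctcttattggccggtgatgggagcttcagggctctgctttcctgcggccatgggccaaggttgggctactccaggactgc

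TATAA begins 30 bases before the Agt start, and the Agt window has no GGGCGG. The first Ace start has 2 overlapping TATAA matches, 1 on each strand, at 30 and 29 bases before the start, and 4 matches to GGGCGG, of which the first 2 overlap, within a window of 69.7% G and C. The internal Ace start, which in mammals gives the testis form of the enzyme, holds neither motif. Of 32851 promoter windows of this length, 24.9% hold TATAA and 35.7% hold GGGCGG, so both are common. The windows of Agtr1b and Agtr2 each hold 1 TATAA, at 31 and 26 bases before the start, and the table used has no entry for Agtr1a.

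Agt, the substrate of the system, separated the genotypes in the valve, although the difference did not pass the test of the whole table. On the 4 Eln+/+ valve arrays, replicates 1 to 4, its log2 ratio was -0.60, -0.33, -0.52 and 0.17. On the 4 Eln+/- valve arrays it was 0.26, 0.49, 0.23 and 0.44. Every Eln+/- valve array was above every Eln+/+ valve array, with Eln+/+ replicate 4 standing closest to them. The difference was 0.68 ± 0.17 (SE, 4 arrays a group), with a 95% interval of 0.32 to 1.04, or 1.60-fold. By the exact two-sided permutation test its p was 0.0286, the smallest that 4 arrays against 4 can give, and its unadjusted limma p was 0.000947. Over all 45037 probe sets the limma adjusted p was 0.368.

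In the aorta Agt showed no such separation. The Eln+/+ aorta arrays gave -0.21, 0.018, -0.018 and 0.19, and the Eln+/- aorta arrays gave 0.21, -0.23, -0.19 and -0.16. The ranges overlapped and the difference was -0.090 ± 0.17 (SE). The Eln effect was 0.77 ± 0.24 (SE) larger in the valve than in the aorta, with an adjusted p of 0.619 by limma, and 0% of the table passed that comparison, while 7.72% had an unadjusted p below 0.05. The groups ran from the Eln+/+ valve (mean -0.32 ± 0.35 SD) through the Eln+/- aorta (-0.094 ± 0.20) and the Eln+/+ aorta (-0.0045 ± 0.16) to the Eln+/- valve (0.36 ± 0.13). The first 3 did not differ from their neighbours beyond their spread, and the Eln+/- valve stood clear of the Eln+/+ aorta (exact permutation p = 0.0286). Valve minus aorta, Agt differed by 0.45 ± 0.17 (SE) in Eln+/- mice, with a limma adjusted p of 0.140. In Eln+/+ mice that difference was -0.32 ± 0.17, with a limma adjusted p of 0.478, and over both genotypes it was 0.066 ± 0.12.

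Several other measures moved with Agt in the valve. All 10 heart muscle markers were higher on average in the Eln+/- valve, with 0 of 10 past the threshold and a median difference of 0.77. Across the 8 valve arrays, which share the genotype split, Agt had a Pearson correlation of 0.67 with the mean of 3 nerve markers. It correlated at 0.63 with Xist minus Y-linked RNA and at -0.60 with the adipocyte mean. Over the 8 aorta arrays Agt correlated at -0.19 with the nerve mean, 0.12 with Xist minus Y-linked RNA and -0.082 with the adipocyte mean. With the fibroblast mean it correlated at -0.57 over the valve and -0.67 over the aorta arrays. The nerve mean was 0.32 in the Eln+/+ and 0.91 in the Eln+/- valve, and its part was not tested. With the mean of the heart muscle markers Agt correlated at 0.64 over the valve and at -0.18 over the aorta arrays. With that mean as a covariate among the valve arrays alone, the Agt difference was 0.60 with a limma adjusted p of 0.932. The Eln+/+ valve replicate 2, the 1 array of its group with high Xist, stood at -0.33, below all 4 Eln+/- valve arrays. With a covariate of Xist minus Y-linked RNA the difference was 0.58, with a limma adjusted p of 0.637. Over all 33 ways of processing the values it stayed between 0.58 and 0.84, with limma adjusted p from 0.175 to 0.932.

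**Figure D1:**
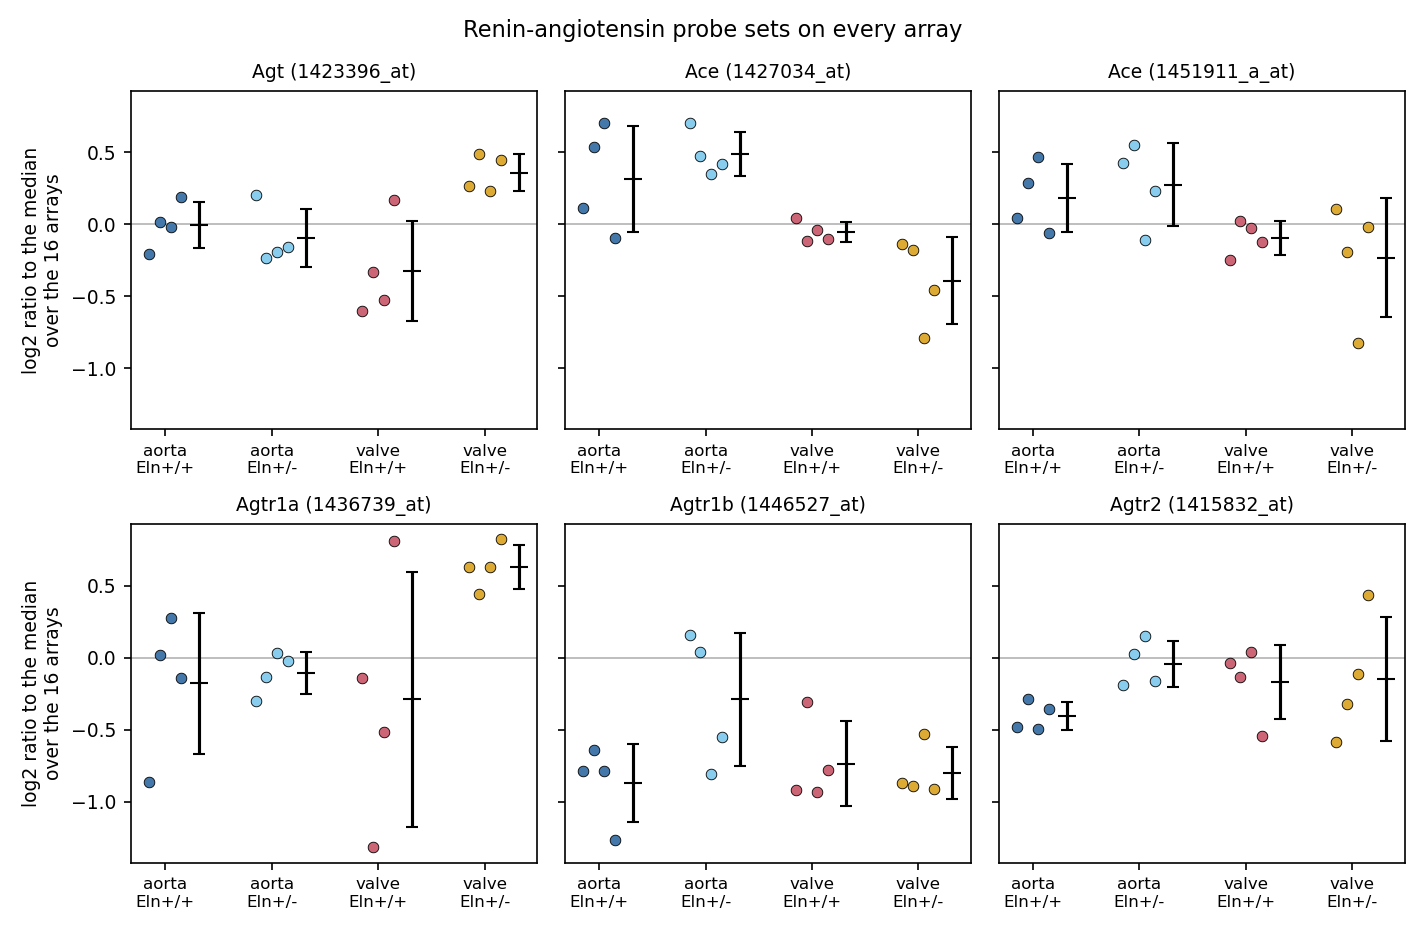
Log2 ratio (vertical axis) of the 6 renin-angiotensin probe sets on each of the 16 arrays, by tissue and genotype, with replicates 1 to 4 from left to right; black marks are the group mean ± SD. The 4 Eln+/- valve arrays of Agt, from 0.23 to 0.49, lie above all Eln+/+ valve arrays, and Ace (1427034_at) is lower on each Eln+/- valve array than on each Eln+/- aorta array.

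Ace was lower in the valve than in the aorta, and it was the only one of the genes measured with a difference that passed the limma test over the whole table. Its probe set 1427034_at gave 0.70, 0.47, 0.35 and 0.42 on the Eln+/- aorta arrays. On the Eln+/- valve arrays it gave -0.13, -0.18, -0.79 and -0.46. The groups did not overlap, and valve replicate 3 was the lowest. In Eln+/- mice the valve was lower by 0.88 ± 0.18 log2 units (SE, 4 arrays a group), or 1.84-fold, with an adjusted p of 0.00963 by limma and an exact permutation p of 0.0286. That is 1 of the 6 probe sets past the threshold where 5.81% of the whole table passed. Without the 2 aorta arrays high in thymocyte markers, a fit added after the data were seen, it was -0.92 with an adjusted p of 0.0481 by limma.

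In Eln+/+ mice the same probe set gave 0.11, 0.54, 0.70 and -0.10 in the aorta. It gave 0.040, -0.11, -0.041 and -0.10 in the valve. Aorta replicate 4 was as low as the valve arrays, the ranges overlapped, and the difference of -0.37 ± 0.18 (SE) had an adjusted p of 0.445 by limma. In that comparison 0 of the 6 probe sets passed, against 0.946% of the whole table. Averaged over both genotypes the valve was lower by 0.62 ± 0.13 (SE), or 1.54-fold, with an adjusted p of 0.00642 by limma and an exact permutation p of 0.00122 over assignments within genotype. This was again the 1 probe set of 6 that passed, where 8.04% of the table did.

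The second Ace probe set, 1451911_a_at, pointed the same way without passing. Its aorta values were 0.042, 0.29, 0.47 and -0.062 in Eln+/+ and 0.43, 0.55, -0.11 and 0.23 in Eln+/- mice. Its valve values were -0.25, 0.020, -0.027 and -0.12 in Eln+/+ and 0.10, -0.19, -0.83 and -0.020 in Eln+/- mice. The tissues overlapped in both genotypes, and valve replicate 3 was again the lowest of the Eln+/- group. Its valve minus aorta difference over both genotypes was -0.39 ± 0.14 (SE), with a limma adjusted p of 0.109. Both Ace probe sets followed each other within each tissue, with correlations of 0.78 over the 8 aorta and 0.71 over the 8 valve arrays.

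Between the genotypes Ace (1427034_at) differed by 0.17 ± 0.18 (SE) in the aorta, with overlapping ranges, and was lower on each Eln+/- valve array than on each Eln+/+ valve array. That valve difference was -0.34 ± 0.18 (SE), with an exact permutation p of 0.0286 and a limma adjusted p of 0.628, while 1451911_a_at gave -0.14 ± 0.20 with overlapping ranges. The groups of 1427034_at ran from the Eln+/- valve (-0.39 ± 0.30 SD) and the Eln+/+ valve (-0.055 ± 0.071) to the Eln+/+ aorta (0.31 ± 0.37) and the Eln+/- aorta (0.49 ± 0.15). The last 3 overlapped with their neighbours. Among the 6 probe sets, Agt and Ace were the 2 whose genotypes did not overlap in the valve, 1 higher and 1 lower, where 5.04% of the table did not overlap.

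Markers of cell types were set beside Ace within each tissue and between the tissues. Ace (1427034_at) correlated with the smooth muscle mean at 0.74 over the 8 valve arrays and at 0.084 over the 8 aorta arrays. With the fibroblast mean it correlated at 0.85 over the valve arrays and at -0.068 over the aorta arrays. Of the 7 fibroblast markers 4 rose in the valve over both genotypes, and the part of these cells was not tested. Over the aorta arrays Ace (1427034_at) correlated at -0.79 with the adipocyte mean and at -0.75 with the endothelial mean. There the second Ace probe set, 1451911_a_at, gave -0.37 and -0.51. With the nerve mean over the aorta arrays 1427034_at gave -0.60 and 1451911_a_at gave -0.84. For 1451911_a_at the smooth muscle mean gave 0.74 over the valve and -0.33 over the aorta arrays, and the fibroblast mean 0.51 and 0.078. The smooth muscle mean ran from 0.15 to 0.59 in the Eln+/+ aorta, from -0.65 to 0.63 in the Eln+/- aorta, from -0.77 to 0.25 in the Eln+/+ valve and from -2.20 to -0.57 in the Eln+/- valve, where it was lowest on replicate 3. Endothelial cells are a known site of the enzyme, and of their 9 markers 4 rose and 1 fell in the valve over both genotypes. With the smooth muscle mean as a covariate the Eln+/- difference of Ace (1427034_at) was -0.65, with an adjusted p of 0.374 by limma, and in that fit 65 probe sets of the whole table passed in place of 2615. With the heart muscle mean as a covariate it was -0.89, with an adjusted p of 0.999, and 0 probe sets of the table passed.

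A sign of RNA quality differed between the tissues on average, with overlapping ranges, and its part in the result was not tested beyond the fits given here. The log2 ratio of the 3′ minus the 5′ control probe sets averaged 0.016 and 0.015 in the Eln+/+ and Eln+/- aorta and -0.093 and -0.15 in the valve. Over the 8 valve arrays this ratio correlated with Ace (1427034_at) at 0.81, and over the 8 aorta arrays at 0.080. With it as a covariate the Ace (1427034_at) difference was -0.76 in Eln+/- mice, with an adjusted p of 0.0666 by limma, and -0.53 over both genotypes, with an adjusted p of 0.0730. Neither passed, while 1070 probe sets of the whole table did in place of 2615, and 1506 in place of 3620.

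**Figure D2:**
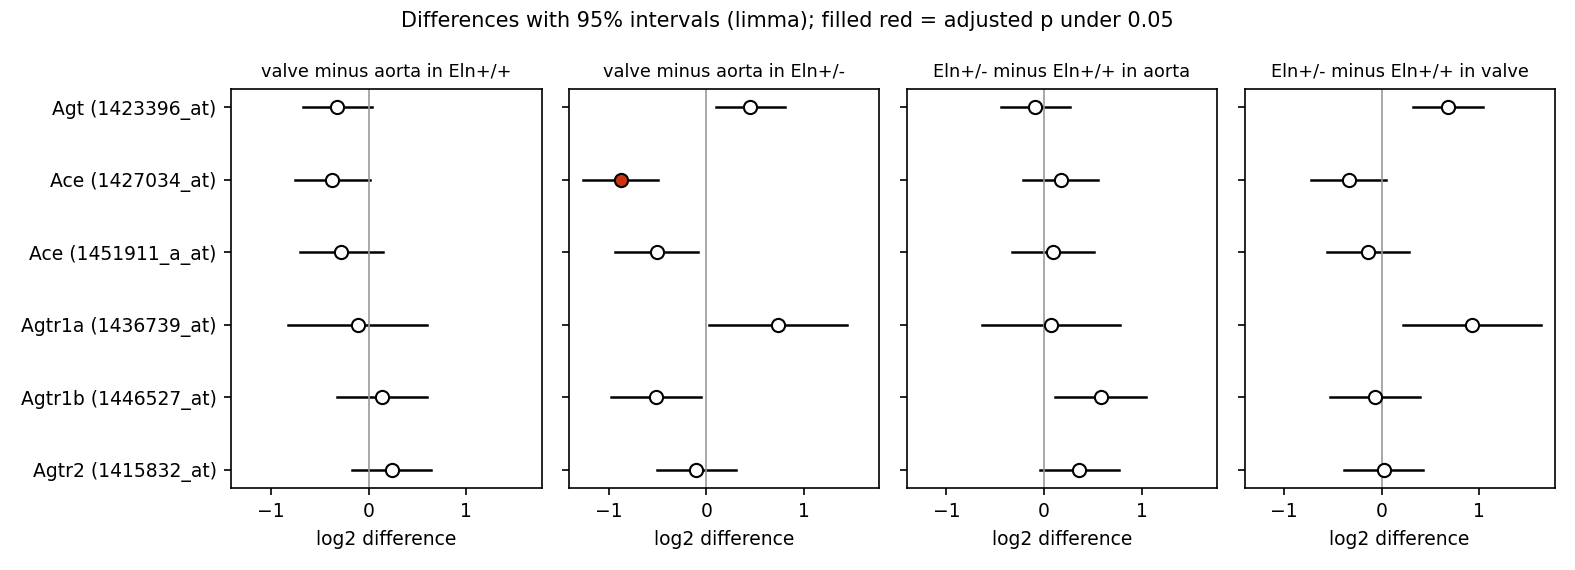
Log2 differences with 95% intervals from limma (horizontal axis) for the 6 probe sets in the comparisons of tissues within a genotype and of genotypes within a tissue; a filled red point has an adjusted p under 0.05. The 1 filled point is Ace (1427034_at), valve minus aorta in Eln+/- mice, at -0.88.

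Agtr1a, the main AT1 receptor gene of rodent blood vessels, was high on all Eln+/- valve arrays and varied widely in the Eln+/+ valve. The Eln+/- valve arrays gave 0.63, 0.44, 0.63 and 0.82. The Eln+/+ valve arrays gave -0.14, -1.32, -0.51 and 0.81. Replicate 4 of the Eln+/+ valve stood with the Eln+/- valve arrays and replicate 2 far below all others, so the genotypes overlapped. The difference was 0.92 ± 0.33 (SE), with an exact permutation p of 0.114 and a limma adjusted p of 0.455. It was 0.58 without Eln+/+ valve replicate 2 and 1.29 without Eln+/+ valve replicate 4.

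In the aorta Agtr1a gave -0.86, 0.021, 0.27 and -0.14 in Eln+/+ and -0.30, -0.13, 0.034 and -0.021 in Eln+/- mice. Those ranges overlapped, with Eln+/+ replicate 1 the lowest. In Eln+/- mice each valve array was above each aorta array, a difference of 0.74 ± 0.33 (SE) with an exact permutation p of 0.0286 and a limma adjusted p of 0.241. Fitted on these 8 arrays alone its adjusted p was 0.0272. Agt, Agtr1a and Ace (1427034_at) were the 3 probe sets whose tissues did not overlap in Eln+/- mice, 2 higher and 1 lower in the valve, where 11% of the table did not overlap. In Eln+/+ mice 0 of the 6 were apart, where 7.68% of the table was. In order, the Eln+/+ valve (-0.29 ± 0.88 SD), Eln+/+ aorta (-0.18 ± 0.49) and Eln+/- aorta (-0.11 ± 0.15) of Agtr1a overlapped, and the Eln+/- valve (0.63 ± 0.15) stood above the Eln+/- aorta.

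Agtr1a followed the means of several marker lists in the valve. Over the 8 valve arrays it correlated at 0.71 with the endothelial, 0.68 with the nerve and -0.70 with the smooth muscle mean. Over the 8 aorta arrays Agtr1a correlated with these means at -0.31, -0.58 and -0.095. With the heart muscle mean its correlation was 0.79 over the 8 valve arrays and 0.30 over the 8 aorta arrays. With that mean as a covariate among the valve arrays, its genotype difference was 0.28, with a limma adjusted p of 0.972. Over the 8 valve arrays Agtr1a correlated with Agt at 0.77, and over the 8 aorta arrays at 0.14. In the plot of these genes against heart muscle signal, Eln+/+ valve replicate 4 is the array of its group with the highest heart muscle mean, 1.73, and with the highest Agt and Agtr1a.

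**Figure D3:**
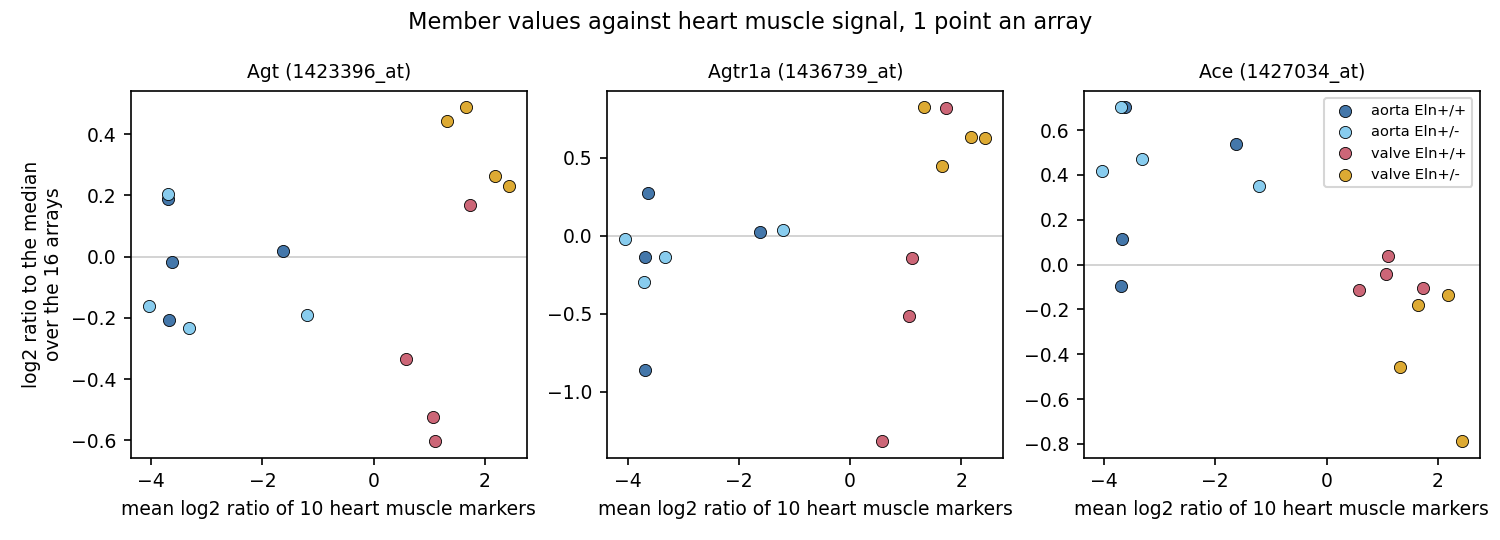
Log2 ratios of Agt, Agtr1a and Ace (1427034_at) on the vertical axis against the mean log2 ratio of 10 heart muscle markers on the horizontal axis, 1 point an array, coloured by group. The aorta arrays lie at or below -1.21 on the horizontal axis and the valve arrays at or above 0.58, and within the valve the Eln+/- arrays, from 1.32 to 2.43, overlap 1 Eln+/+ array at 1.73.

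Agtr1b, the second AT1 receptor gene of rodents, showed no difference that passed. Its Eln+/+ aorta arrays gave -0.78, -0.64, -0.79 and -1.27, and its Eln+/- aorta arrays gave 0.16, 0.040, -0.81 and -0.55. Replicates 1 and 2 of the Eln+/- aorta were the only arrays of the 16 above 0. The aorta difference was 0.58 ± 0.22 (SE), with an exact permutation p of 0.114 and a limma adjusted p of 0.885. The valve arrays lay between -0.94 and -0.31 in Eln+/+ and between -0.91 and -0.53 in Eln+/- mice, with a difference of -0.068 ± 0.22 (SE). All 4 groups overlapped with their neighbours in the order of their means, from -0.87 ± 0.27 (SD) in the Eln+/+ aorta to -0.29 ± 0.46 in the Eln+/- aorta.

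Agtr2, the AT2 receptor gene, lies on the X chromosome and was higher on each Eln+/- aorta array than on each Eln+/+ aorta array, a difference in which sex and genotype cannot be fully told apart. The Eln+/+ aorta arrays gave -0.48, -0.29, -0.50 and -0.36. The Eln+/- aorta arrays gave -0.19, 0.023, 0.15 and -0.16. The difference was 0.36 ± 0.19 (SE), or 1.28-fold, with an exact permutation p of 0.0286 and a limma adjusted p of 0.885, so it did not pass over the whole table. Agtr2 was the 1 probe set of 6 whose genotypes did not overlap in the aorta, where 2.84% of the table did not overlap. The Eln+/+ aorta replicate 4, the array of its group with high Xist, stood at -0.36, below all 4 Eln+/- arrays, and with a covariate of Xist minus Y-linked RNA the difference was 0.32. Without the 2 Eln+/- aorta arrays high in thymocyte markers it was 0.39.

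In the valve Agtr2 gave -0.039, -0.13, 0.040 and -0.54 in Eln+/+ and -0.59, -0.32, -0.11 and 0.43 in Eln+/- mice. These ranges overlapped widely and the difference was 0.022 ± 0.19 (SE). Its groups ran from the Eln+/+ aorta (-0.40 ± 0.10 SD) through the Eln+/+ valve (-0.17 ± 0.26) and the Eln+/- valve (-0.15 ± 0.43) to the Eln+/- aorta (-0.043 ± 0.16), each overlapping its neighbours.

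Over the 6 probe sets, 5 had an unadjusted p below 0.05 between the tissues of Eln+/- mice, where 19% of the whole table did, and 0 did in Eln+/+ mice, where 11.8% of the table did. Between the genotypes 2 of the 6 did in the valve, where 8.6% of the table did, and 1 of the 6 in the aorta, where 5.51% did. The median difference over the 6 between the tissues of Eln+/- mice was -0.31, with 2 higher and 4 lower. Both Ace probe sets are among these 4 and among the 5 above, so 1 gene is counted more than once. The median over all genes, which takes 1 probe set a gene and so is not a like measure, was -0.0030. In their SD over the 16 arrays the 6 probe sets ranked between the 40.8th percentile of the table, for Agtr2, and the 88.3rd, for Agtr1a.

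Around these genes, 45 of 53 listed genes of the wider pathway were measured, covering other peptidases of the system, further receptors and their partners, AT1 receptor signalling, genes that respond to angiotensin II, and the aldosterone arm. The probe set that varied most over the 16 arrays stands for each gene. Between the tissues, over both genotypes, 2 of the 45 rose in the valve and 2 fell, beside 9.63% of all 18193 genes called in either direction. In Eln+/- mice 0 rose and 2 fell, beside 7.06% of all genes, and in Eln+/+ mice 0 passed, beside 1.32%. Between the genotypes 0 of 45 passed in either tissue by limma, as for all genes.

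Of the 14 measured genes of AT1 receptor signalling, Rgs4 and Plcb3 fell and Arrb1 rose in the valve over both genotypes. Rgs4, a GTPase-activating protein that shortens the signal of Gq and Gi proteins, gave 0.13, 0.44, 0.13 and 0.77 in the Eln+/+ aorta and 0.50, 0.23, 0.82 and 0.75 in the Eln+/- aorta. In the valve it gave -0.51, -0.14, -0.38 and -1.12 in Eln+/+ and -1.48, -0.36, -1.80 and -0.78 in Eln+/- mice. In this probe set, 1416287_at, no valve array reached any aorta array. The difference was -1.29 ± 0.20 (SE), or 2.45-fold lower, with an adjusted p of 0.000895 by limma. All 3 Rgs4 probe sets fell in the valve over both genotypes and in Eln+/- mice. In 1416286_at and 1448285_at the tissues overlapped over both genotypes, with differences of -1.17 and -1.12.

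Plcb1, Plcb3 and Plcb4 encode phospholipase C beta enzymes, which Gq proteins activate behind the AT1 receptor. Plcb3 fell by 0.59 ± 0.16 (SE) over both genotypes, with an adjusted p of 0.0345 by limma. The Plcb1 probe set of highest SD fell by 0.99 in the Eln+/- valve, with an adjusted p of 0.0409 by limma. The same probe set differed by 0.13 in Eln+/+ mice and by -0.43 over both genotypes, with an adjusted p of 0.208, and did not pass. In Eln+/- mice all 5 Plcb1 probe sets were lower in the valve on average, 2 of them past the threshold. Over both genotypes all 5 were lower as well, and 2 others than that of highest SD passed by limma. They were 1425600_a_at, at -0.86 with an adjusted p of 0.00403, and 1435043_at, at -0.47 with an adjusted p of 0.0404. In Eln+/+ mice 4 of the 5 were lower and 0 passed. The Plcb4 probe set of highest SD did not pass (-0.84, adjusted p 0.165 over both genotypes), but 2 of its 5 probe sets fell, 1425339_at by 0.89 and 1435771_at by 0.64. Smooth muscle markers also fell in the valve, as given above, and with their mean as a covariate the differences of Plcb3 and Plcb4 in Eln+/- mice changed sign.

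Arrb1, which encodes beta-arrestin 1, an adaptor that ends G protein coupling of the AT1 receptor, rose in the valve by 0.48 ± 0.11 (SE) over both genotypes, with an adjusted p of 0.0171 by limma. Ccl2, a chemokine that draws monocytes and a gene that angiotensin II induces in vascular cells, rose by 0.45 ± 0.12 (SE), with an adjusted p of 0.0324. With the heart muscle mean as a covariate its difference was -0.080. All 6 macrophage markers were also higher in the valve on average, 0 of them past the threshold, with a median difference of 0.56. The mean of these markers was -0.34 and -0.24 in the Eln+/+ and Eln+/- aorta and 0.25 and 0.21 in the valve, and their part in the result was not tested. Ccl2 was the 1 of the 7 measured angiotensin-responsive genes to pass. Among the 13 peptidases, the 6 receptors and partners and the 5 genes of the aldosterone arm, 0 passed in any comparison by limma.

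The genes of lowest p in those lists are given for their values. Anpep, an aminopeptidase that trims angiotensin III, differed by 0.75 ± 0.24 (SE) between the Eln+/+ tissues, with an adjusted p of 0.197, and by 0.26 between the Eln+/- tissues. Rnpep, aminopeptidase B, differed by 0.53 ± 0.19 in Eln+/+ mice, with an adjusted p of 0.255, and by -0.023 in Eln+/- mice. Bdkrb2, the bradykinin B2 receptor gene, gave -0.50 ± 0.18 in Eln+/+ mice, with an adjusted p of 0.260, and -0.019 in Eln+/- mice, while its other probe set, 1442187_at, gave -0.28 and 0.037. Hsd11b2, which shields the mineralocorticoid receptor from glucocorticoids, gave 0.75 ± 0.28 over both genotypes, with an adjusted p of 0.125. Its Eln+/- aorta arrays gave -0.13, -0.25, -0.19 and -2.24, so the Eln+/- part of that difference leans on replicate 4. With the heart muscle mean as a covariate the difference over both genotypes was -0.029.

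Of the 45 genes, by the probe set of highest SD, 3 had genotypes that did not overlap in the aorta, where 2.78% of all genes did not. Of these 3, 2 were higher and 1 lower in Eln+/-. They were Atp6ap2 and Cyp11b2, of lowest p in their lists, and Enpep, the aminopeptidase that turns angiotensin II into angiotensin III, which the rule did not name and which is given after its values were seen. Enpep was higher in Eln+/- by 0.42 ± 0.21 (SE), with an exact permutation p of 0.0286 and a limma adjusted p of 0.885. It gave -0.11, -1.26, -0.30 and -0.11 in Eln+/+ and 0.026, -0.0082, -0.047 and -0.067 in Eln+/- mice. Eln+/+ replicate 2, at -1.26, stood far below all the others, and the closest arrays of the genotypes were at -0.11 and -0.067. Atp6ap2, the (pro)renin receptor gene, gave -0.13, -0.62, -0.089 and 0.012 in Eln+/+ and 0.046, 0.63, 0.36 and 0.42 in Eln+/- mice. Its difference was 0.57 ± 0.17 (SE), with an exact permutation p of 0.0286 and a limma adjusted p of 0.867, while its other probe sets 1437688_x_at and 1439456_x_at both gave 0.020. Cyp11b2, aldosterone synthase, differed by -0.41 ± 0.12 (SE), with an exact permutation p of 0.0286 and a limma adjusted p of 0.867. In the valve 1 of the 45 genes, by the probe set of highest SD, had genotypes that did not overlap. The share at hand there, 5.04%, is of all probe sets and not of genes. The gene was Plcb1 (1425781_a_at), which differed by -0.98 ± 0.27 (SE), with an exact permutation p of 0.0286 and a limma adjusted p of 0.395. The other Plcb1 probe sets gave 0.12, -0.31, -0.089 and 0.0060, with overlapping ranges. Further probe sets of named genes had genotypes apart, each with an exact permutation p of 0.0286. They were Plcb4 1435771_at (-0.45) and Atp6ap2 1437688_x_at (-0.12) in the valve, and Bdkrb2 1442187_at (-0.38) in the aorta.

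**Figure D4:**
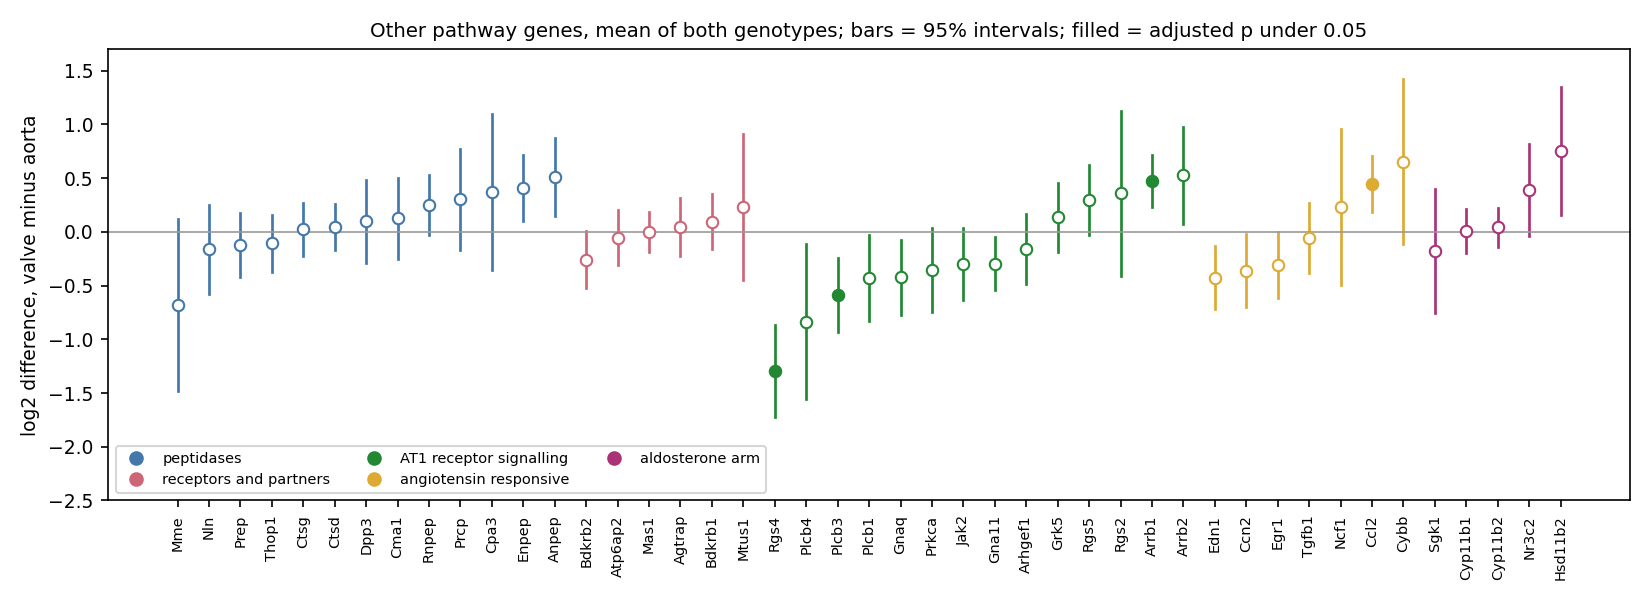
Log2 difference, valve minus aorta averaged over both genotypes (vertical axis, with 95% intervals from limma), for the 45 measured genes of the wider pathway, grouped and coloured by role. Filled points have an adjusted p under 0.05: Rgs4 (-1.29) and Plcb3 (-0.59) are lower in the valve, Arrb1 (0.48) and Ccl2 (0.45) higher.

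Likeness was taken as the lower of the correlations over the 8 aorta and the 8 valve arrays, and it is a description over few arrays that share their groups. The genes most like Agt were Cyp2b9, Cpeb3 and Ilrun, at 0.83, 0.82 and 0.80. Those most like Ace (1427034_at) were Ephx1, Tmem165 and Fez1, at 0.88, 0.85 and 0.83. Those most like Agtr1a were Slc30a9, Map2k2 and Rmdn1, at 0.84, 0.83 and 0.82. Agtr1b was most like Elovl7 at 0.80, and Agtr2 most like Trim30d at 0.81. No other renin-angiotensin gene was among the 3 genes most like any of them.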

How the data were processed

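Per the labels, amplified cDNA of single specimens was hybridised to Affymetrix mouse genome arrays, and the submitters' processing notes name RMA. The authors deposited linear ratios of each array to the median of the same probe set over the 16 arrays; this division was read from the numbers, since the labels do not describe it. Of the 45037 probe sets tested, 39780 had a median of 1 (tolerance 1e-06), 5257 a lower one and 0 a higher one. The medians of the arrays lay between 0.957 and 1.01. Control probe sets, 64 in number, were removed, and 34945 of the others name 1 gene, 932 several and 9160 none. All 5 measured genes were matched to the reference table by Entrez identifier. No genome build is given in the sources used here, and promoters are RefSeq's. The depth of arrays is not counted, and 4 arrays a group limit the precision.

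The log2 of the deposited ratios was fitted with limma 3.58.1 (statmod 1.5.0, R 4.3.3) on 4 group means over all arrays, with 12 residual and 3.60 prior degrees of freedom. Adjusted p-values are Benjamini-Hochberg over all 45037 probe sets, for 6 comparisons, two-sided, with a threshold of 0.05. Exact permutation tests ran over 70 assignments, or over 4900 within genotype for the mean of the genotypes. Gene summaries use the probe set of highest SD. The fit was tested on simulated data. Every member was named with every probe set, and pathway genes were named where a probe set passed in any comparison and otherwise up to 2 of lowest p in a list. The 3 genes most like each member were named as well. The members and lists were chosen with earlier results of these data known. Replicate numbers were not used to pair the arrays in the main fit. The correlation of deviations was over 0.1 in 0 of 8 same-numbered pairs of tissues (-0.040 to 0.052) and in 0 of 8 of genotypes (-0.15 to 0.071). With no known pair to compare, this cannot exclude pairing. Xist minus Y-linked RNA was -10.7 in Eln+/+ aorta 2 and 0.84 in Eln+/+ valve 2. It was 0.66 in Eln+/+ aorta 4 and -11.0 in Eln+/+ valve 4, so by sex so read these same-numbered arrays were not of 1 mouse. No arrays were identical. Alternatives changed the scaling, floor, weights, variance moderation, block, covariates and arrays used.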

Additional observations from a re-analysis of the deposited data

Results flagged for a closer look

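Of the 72 groups of 4 arrays tested for a stray array among the probe sets named, 5 held one, and chance gives about 1 in 20. Agt stood apart on Eln+/- aorta replicate 1, at a log2 ratio of 0.21, above the other 3 arrays of its group. Agtr1b stood apart on Eln+/- valve replicate 3, at -0.53, again above the other 3. Plcb1 was low on Eln+/- valve replicate 4, at -1.35. Plcb3 was low on Eln+/+ aorta replicate 2, at 0.017. Hsd11b2 was low on Eln+/- aorta replicate 4, at -2.24, an array that also carried high thymocyte markers, and the part of those in its value was not tested.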

How the results depend on the processing

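Of 1116 recomputed differences of the 6 probe sets, 1106 kept their direction and side of the threshold or changed sign where no unadjusted p was below 0.05, which 22 did. Between the tissues of Eln+/- mice, the count of probe sets past the threshold was 2 with only the arrays compared, and 0 with the heart muscle mean, the smooth muscle mean or the 3' minus 5' controls as a covariate. Over both genotypes it was 0 with the same 3 covariates, and leaving out 1 array gave 1 to 1 in both. Without those covariates the Ace (1427034_at) call held, in 28 of 31 fits in Eln+/- mice and 27 of 30 over both genotypes; with the 3' minus 5' controls its adjusted p was 0.0666 and 0.0730 (limma). The heart muscle covariate separates the tissues almost as the labels do, and 0 probe sets of the table passed with it.

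With the heart muscle covariate these differences changed sign: Ace (1451911_a_at) to 0.037 in Eln+/- mice and 0.12 over both genotypes, Agtr1a to -0.27 and Atp6ap2 to 0.21 in Eln+/- mice, Plcb1 to 0.46 and Hsd11b2 to -0.029 over both genotypes, Plcb3 to 0.15 in Eln+/+, 0.22 in Eln+/- and 0.18 over both, and Ccl2 to -0.044, -0.12 and -0.080. With the smooth muscle covariate Plcb3 changed to 0.16 in Eln+/- mice and Plcb4 to 0.13 there and 0.12 over both. The cause was not tested. The ratios hold no signal over background. Leaving out probe sets with a median ratio below 1, Agtr1b and Agtr2 among them, left the 6 counts of calls as they were.

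The replicate number as a block, fixed or random, left all 6 counts of calls as they were: 1 probe set in Eln+/- mice and over both genotypes, and 0 elsewhere. Under the fixed block the Agt difference in the valve had an adjusted p of 0.467, and Ace (1427034_at) in Eln+/- mice one of 0.0197 (limma).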
